A study of Mus musculus with 2 samples.

Results

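Genes of iron uptake, storage, export, heme breakdown and iron sensing were compared between mouse skin cells that an antibody against the zinc importer ZIP10 marked and those it left unmarked, written ZIP10+ and ZIP10- here (ZIP10-positive and ZIP10-negative in the plots). The group was fixed by symbol as Fth1, Ftl1, Tfrc, Slc40a1, Hmox1, Slc11a1, Slc11a2, Aco1, Ireb2 and Trf, which are 10 of the 23233 genes in the deposited table. All 10 were above 0 in both libraries and passed the filter of 1 RPKM in at least 1 library, Slc11a1 through the ZIP10+ library alone. Both populations came from ventral skin of 7-day-old wild-type C57BL/6 mice. The skin was digested with dispase and collagenase, stained with a rabbit antibody against ZIP10, and sorted with 7-AAD as the viability dye. From each population 1 library of polyadenylated RNA was read, without replicates. No test is possible with 2 libraries, and every difference below describes these libraries alone. The labels name neither the number of animals nor any pooling. The sample titles speak of hair follicles, while the protocol describes a suspension of whole ventral skin that was not sorted on a marker of a single cell type.

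Cells take up iron bound to the serum carrier transferrin through the transferrin receptor, and divalent metal transporters then carry it out of the endosome. Ferritin, a shell of heavy and light chains, stores it, ferroportin exports it, and heme oxygenase frees it from heme. A pair of iron regulatory proteins senses the iron of the cell and binds hairpins called iron-responsive elements in the mRNAs of these genes. An element before the coding region lets the protein block translation, and elements behind the coding region let it protect the mRNA from decay. Skin is known to lose iron with shed keratinocytes. In the body in general, macrophages recycle iron from red cells, and red cell precursors take up large amounts for hemoglobin.

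The elements of 4 of the 10 genes are shown because they divide the group into mRNAs whose translation and mRNAs whose stability is the known target of the sensors. They were found in GENCODE transcripts (GRCm38, release M21) as a bulged C, a stem of 5 base pairs with G-U pairs allowed, and the loop CAGTGN, searched on the transcript strand. Each is written 5′ to 3′ over 29 bases with the loop in capitals.
Fth1: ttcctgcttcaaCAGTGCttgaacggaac
Ftl1: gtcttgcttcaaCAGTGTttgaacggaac
Slc40a1: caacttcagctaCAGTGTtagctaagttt
Tfrc, the first: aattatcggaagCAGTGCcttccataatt
Tfrc, the second: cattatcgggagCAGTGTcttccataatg
Tfrc, the third: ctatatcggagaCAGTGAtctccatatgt
Tfrc, the fourth: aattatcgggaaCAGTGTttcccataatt

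The element of Fth1 lies in the 5′ UTR at chr19:9982732-9982760 on the plus strand, 138 bases before the coding start. That of Ftl1 lies in the 5′ UTR at chr7:45459779-45459807 on the minus strand, 176 bases before it, and shares 26 of 29 bases with that of Fth1. That of Slc40a1 lies in the 5′ UTR at chr1:45925465-45925493 on the minus strand, 230 bases before it. The 4 elements of Tfrc lie in its 3′ UTR on the plus strand, at chr16:32631219-32631247, chr16:32631598-32631626, chr16:32631663-32631691 and chr16:32631710-32631738. A match was held by a 5′ UTR of 31 of 21877 coding genes, or 0.142%, and by a 3′ UTR of 129, or 0.59%. Alas2, the heme synthesis enzyme described below, is 1 of the 31. For the other 6 genes of the group these letters were not found in a UTR, which says nothing more about them. RNA levels alone were measured, so neither translation nor binding of the sensors can be read from the values below.

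Values are in RPKM, read counts divided by transcript length and by the mapped reads of the library, as deposited, so levels of different genes can be set side by side within a library. The depth estimated from the values was about 2780000 reads in the ZIP10+ and 2710000 reads in the ZIP10- library. The ZIP10 gene itself, Slc39a10, was at 49.4 RPKM in ZIP10+ and 11.1 RPKM in ZIP10- cells, a check of the sort and no finding. Values ran higher in the ZIP10+ library for most genes, with a ratio of 1.97 for the median gene, taken over genes at 1 RPKM or above in both. Of the RPKM sum, globin genes took 59.4% in the ZIP10- and 3.46% in the ZIP10+ library, and the part of this difference in the general shift was not tested. Every gene of the group is therefore given as deposited and against the median gene. Keratinocyte markers were present in both libraries. Basal markers summed to 2362 RPKM in ZIP10+ and 800.2 RPKM in ZIP10- cells, with Krt5 at 1021 and 222 RPKM. Suprabasal markers summed to 77.3 and 93.4 RPKM, with Krt10 at 11.03 and 31.1 RPKM.

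As a group the iron genes followed the shift of the libraries, with an exception at each end. On the log2(RPKM + 1) scale 4 of 10 were at least 2-fold higher in ZIP10+ cells as deposited, against 44.1% of the 12249 genes compared. None was at least 2-fold lower, against 3.55% of genes. Against the median gene 1 was higher, Slc11a1, against 14.7% of genes, and 1 was lower, Ftl1, against 11.4%. The median log2 ratio of the 10 genes was 0.89 as deposited, beside 0.87 over all genes compared, and -0.014 against the median gene, beside 0.094.

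**Figure D1:**
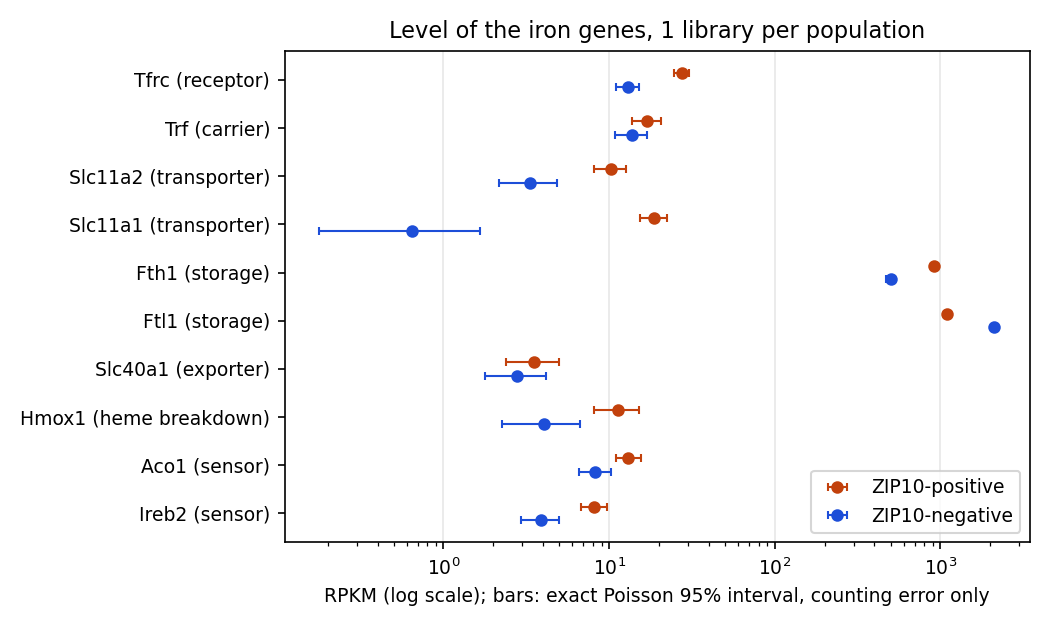
Level of each iron gene in RPKM on a log axis, 1 point per library, ZIP10+ in orange and ZIP10- in blue, with exact Poisson 95% intervals for counting error only. The ferritin genes stand far above the rest, Ftl1 is the only gene with the blue point to the right, and Slc11a1 has the widest gap, from 0.647 to 18.6 RPKM.

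The carrier and its receptor are the entry point of the pathway. Tfrc, the transferrin receptor, stood at 27.4 RPKM in ZIP10+ and 13.0 RPKM in ZIP10- cells. The ratio was 2.11, with an exact binomial 95% interval of 1.75 to 2.55 from 359 and 166 reads, which covers counting error only, as do all intervals here. Divided by that of the median gene the ratio was 1.07, with an interval of 0.888 to 1.29, so the receptor lay close to the bulk of genes. Trf, the transferrin carrier itself, stood at 16.9 RPKM against 13.7 RPKM, a ratio of 1.23 that spans equality at 0.91 to 1.68 from 100 and 79 reads. Trf lay lower than the median gene, at 0.627 with an interval of 0.462 to 0.853. The ratio of Tfrc to Trf was 1.62 within the ZIP10+ and 0.949 within the ZIP10- library. This ratio does not depend on how the libraries are scaled, and it was 1.71 times as large in ZIP10+ cells, with an exact conditional 95% interval of 1.19 to 2.45.

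Of the paralogous metal transporters, Slc11a1 had the largest ratio of the group. Slc11a1, known as NRAMP1, pumps divalent metals out of the phagosome of macrophages and neutrophils. It stood at 18.6 RPKM in ZIP10+ and 0.647 RPKM in ZIP10- cells, on about 110 and 4 estimated reads. The ratio was 28.8, with an interval of 10.9 to 107, and 14.6 against the median gene, with an interval of 5.54 to 54.5. Of the 12249 genes compared, 119 had a higher log2 ratio. Slc11a2, known as DMT1, is the transporter of the gut border and of endosomes in most cells. It stood at 10.2 RPKM against 3.33 RPKM, a ratio of 3.07 with an interval of 1.95 to 4.97 from about 80 and 26 estimated reads. Its ratio against the median gene was 1.56, and the interval of 0.989 to 2.52 reached the median gene. Within the ZIP10+ library Slc11a1 was 1.82 times as high as Slc11a2, while within the ZIP10- library Slc11a2 was 5.14 times as high as Slc11a1. The order of the transporters was thus opposite in the libraries, and the ratio of Slc11a1 to Slc11a2 differed 9.38-fold, with an interval of 3.06 to 38.1.

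Summed levels of phagocyte markers were higher in ZIP10+ cells, as was Slc11a1, but single markers differed. Of 17 macrophage markers 13 reached 1 RPKM in a library, 9 of them in ZIP10+ cells alone, so the filter fixes their direction and no count of higher markers is given. The summed level of the 17 was 1272 RPKM against 61.7 RPKM. The 4 markers at 1 RPKM or above in ZIP10- cells were Tyrobp at 279.8 against 37.6 RPKM, Cd68 at 31.3 against 10.99 RPKM, Cd14 at 3.89 against 1.14 RPKM and Cx3cr1 at 11.6 against 9.82 RPKM. Against the median gene the log2 ratios of these 4 were 1.90, 0.50, 0.54 and -0.67, in that order. In ZIP10- cells 9 of the 17 were listed at 0, among them Lyz2 and the complement genes C1qa, C1qb and C1qc. Of 10 neutrophil markers 8 reached 1 RPKM in a library, 7 of them in ZIP10+ cells alone, which likewise fixes their direction. The summed level of the 10 was 1680 RPKM against 16.3 RPKM, and S100a8, present in both libraries, stood at 865 against 15.7 RPKM. The neutrophil markers S100a9, Ngp and Camp stood at 530.01, 127 and 106 RPKM and were listed at 0 in ZIP10- cells, while Mpo and Elane, markers of early granulocytes, were at 0 in both. A listed 0 can be a failed estimate in this kind of table, so no fold is given against it. Counts of genes at least 2-fold apart, which use log2(RPKM + 1), do include such genes. The counts without them are given for all other iron and heme genes together, and within single lists the genes concerned are named. Mast cell markers, summed to 310.5 against 14.5 RPKM, and Langerhans and dendritic cell markers, summed to 969 against 117 RPKM, were higher in ZIP10+ cells too. The part of these cells in the Slc11a1 value was not tested, and in bulk samples fewer cells of a type and less RNA per cell cannot be told apart.

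**Figure D2:**
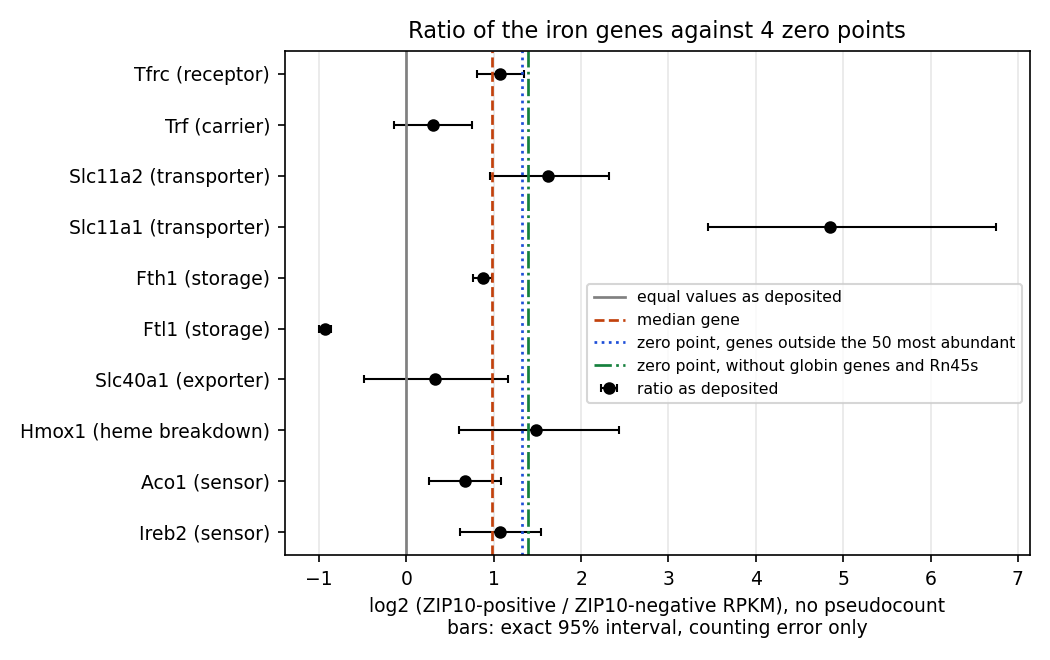
Ratio of ZIP10+ to ZIP10- RPKM for each iron gene on a log2 axis without a pseudocount, with exact 95% intervals for counting error. The vertical lines are 4 zero points, from equal values as deposited through the median gene at 0.98 to the scalings at 1.32 and 1.39; Slc11a1 lies to the right and Ftl1 to the left of every line.

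The ferritin chains were the most abundant genes of the group and went opposite ways as deposited. Fth1, the heavy chain that oxidises iron on entry, stood at 920.1 RPKM in ZIP10+ and 502 RPKM in ZIP10- cells. The ratio was 1.83, with an interval of 1.70 to 1.98 from about 1867 and 994 estimated reads, and 0.93 against the median gene, with an interval of 0.86 to 1.01. The heavy chain therefore lay close to the median gene. Ftl1, the light chain that helps to form the iron core, stood at 1101 RPKM against 2099 RPKM and was the only gene of the group that was lower as deposited. Its value was 1.91-fold lower in ZIP10+ cells, with an interval of 1.81 to 2.01 from about 2353 and 4377 estimated reads. Set against the median gene it was 3.76-fold lower, with an interval of 3.57 to 3.95. Of the 12249 genes compared, 483 had a lower log2 ratio. By level Ftl1 held rank 15 of all genes in the ZIP10- library and rank 108 in the ZIP10+ library, whereas Fth1 held ranks 93 and 114.

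The balance of the chains differed between the libraries. Ftl1 was 1.2 times as high as Fth1 in ZIP10+ and 4.18 times as high in ZIP10- cells, a 3.49-fold difference with an interval of 3.18 to 3.83. Fth1 made up 45.5% of the summed ferritin RPKM in ZIP10+ and 19.3% in ZIP10- cells. The sum itself was 2021 RPKM against 2602 RPKM. Both mRNAs carry the nearly identical 5′ element printed above. The known target of such an element is translation, which was not measured, and its part in these RNA levels was not tested. Measured against the receptor, Ftl1 was 40.2 times as high as Tfrc in ZIP10+ and 162 times as high in ZIP10- cells, which differ 4.02-fold with an interval of 3.31 to 4.90. For Fth1 the corresponding values were 33.6 and 38.7, and the interval of their quotient, 0.707 to 1.06, included 1. By symbol the reference lists 3 ferritin light chain and 2 heavy chain pseudogenes, and pseudogenes under other symbols were not counted. Pseudogenes can share reads with their parent genes, so the ferritin levels are uncertain by an amount that was not estimated.

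Markers of red cells moved with Ftl1. The erythroid list was summed to 16414 RPKM in ZIP10+ and 284722 RPKM in ZIP10- cells, 17.3-fold lower in the former. Of its 12 measured genes 10 were at least 2-fold lower in ZIP10+ cells as deposited and 11 against the median gene. The shares over all genes compared were 3.55% and 11.4%. Genes of this list under 1 RPKM in ZIP10+ cells passed through the ZIP10- library alone, so the filter fixes their direction. Klf1, a transcription factor of red cell precursors, was at 1.08 RPKM and listed at 0 in ZIP10- cells. T cell markers were lower too, with a summed level of 134 RPKM against 732 RPKM. In that list 6 of 7 measured genes were at least 2-fold lower as deposited and 7 of 7 against the median gene, beside the same shares. Cd3g stood at 46.9 against 352 RPKM. The part of red cells and of T cells in the Ftl1 value was not tested.

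**Figure D3:**
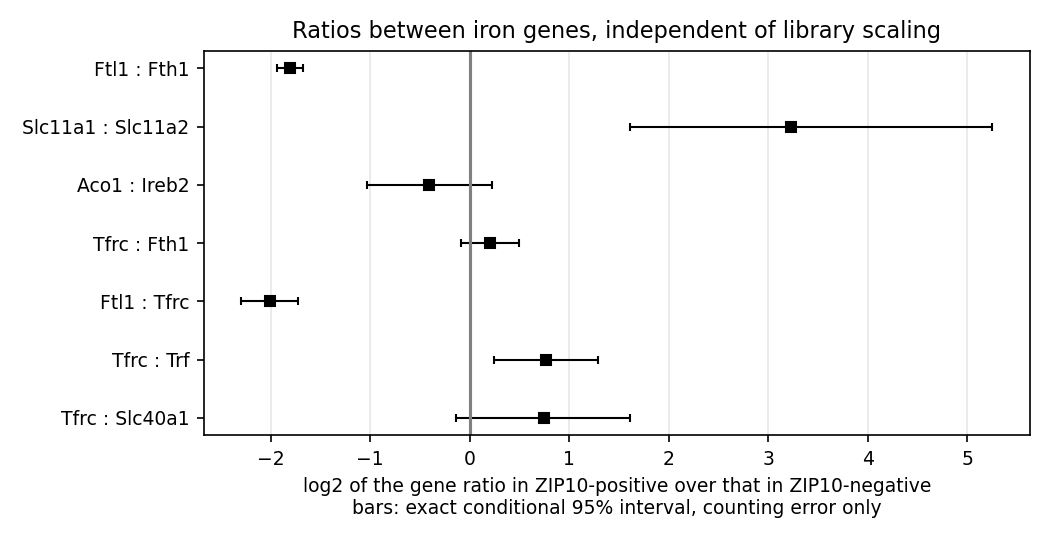
Ratios between pairs of iron genes, as the log2 of the ratio in ZIP10+ over that in ZIP10- cells, with exact conditional 95% intervals for counting error. Scaling of the libraries cancels in these values; Ftl1 to Fth1 and Ftl1 to Tfrc lie below 0, Slc11a1 to Slc11a2 and Tfrc to Trf above 0, and the others include 0.

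Export and heme breakdown rested on few reads. Slc40a1, which encodes ferroportin, the iron exporter of vertebrate cells, stood at 3.51 RPKM in ZIP10+ and 2.78 RPKM in ZIP10- cells, on 31 and 24 reads. The ratio of 1.26, with an interval of 0.716 to 2.24, spanned equality, and the ratio of 0.639 against the median gene, with an interval of 0.363 to 1.14, spanned the median gene. A difference in ferroportin was therefore not detectable at this depth. Hmox1, the inducible heme oxygenase, stood at 11.3 RPKM against 4.02 RPKM, on 43 and 15 reads. Its ratio was 2.8, with an interval of 1.52 to 5.42, and 1.42 against the median gene, with an interval of 0.773 to 2.75. Hmox2, the constitutive heme oxygenase, had a ratio of 1.86, at 29.1 and 15.7 RPKM, and its level was above that of Hmox1 in both libraries.

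The sensors lay near the median gene. Aco1 encodes the iron regulatory protein that doubles as the cytosolic aconitase when it holds an iron-sulfur cluster. It stood at 13.1 RPKM in ZIP10+ and 8.24 RPKM in ZIP10- cells, a ratio of 1.59 with an interval of 1.20 to 2.12 from about 132 and 81 estimated reads. The ratio was 0.806 against the median gene, with an interval of 0.607 to 1.08. Ireb2 encodes the other iron regulatory protein, which is degraded when iron is plentiful. It stood at 8.14 RPKM against 3.88 RPKM, a ratio of 2.1 with an interval of 1.53 to 2.91 from 127 and 59 reads, or 1.07 against the median gene, with an interval of 0.776 to 1.48. Aco1 was 1.61 times as high as Ireb2 in ZIP10+ and 2.13 times as high in ZIP10- cells, and the interval of the quotient, 0.489 to 1.17, included 1.

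In both libraries the ferritin genes led the order and were apart from each other and from the rest. In ZIP10+ cells they were followed by Tfrc, whose Poisson interval did not overlap the next, then by Slc11a1, Trf, Aco1, Hmox1, Slc11a2 and Ireb2, in which each neighbour overlapped the next, and by Slc40a1, which was apart from Ireb2. In ZIP10- cells Trf and Tfrc came next and overlapped, Aco1 was apart from Tfrc, and Aco1, Hmox1, Ireb2, Slc11a2 and Slc40a1 each overlapped the next. Slc11a1 was last there and apart from Slc40a1, whereas it held the fourth place in ZIP10+ cells. With each library as 1 value, 7 of the 10 ratios had counting intervals above equality as deposited, 1 below and 2 across it. Against the median gene 1 interval lay above, 2 below, for Ftl1 and Trf, and 7 across. Under both other scalings of the closing section the log2 ratios of Tfrc, Fth1, Slc40a1, Aco1, Ireb2, Trf and Ftl1 were below 0. Those of Hmox1, Slc11a2 and Slc11a1 were above 0.

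The genes nearest to a member in level were sought over the 2 libraries, by Euclidean distance on log2(RPKM + 1) among genes that reached 10 RPKM in a library. With 2 libraries this likeness is a match of 2 levels and no more. The gene nearest to Slc11a1 was Fcgr3, an Fc gamma receptor of phagocytes, at 19.5 and 0.641 RPKM and a distance of 0.065. The genes nearest to Tfrc were Tmed7 and Xrn2, at distances of 0.0098 and 0.018. Ftl1 had no close neighbour: Mir1901 and the ubiquitin gene Ubb lay at distances of 0.643 and 0.65. Those nearest to Fth1 were Nme2 and the keratin gene Krt17, at 0.281 and 0.292.

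**Figure D4:**
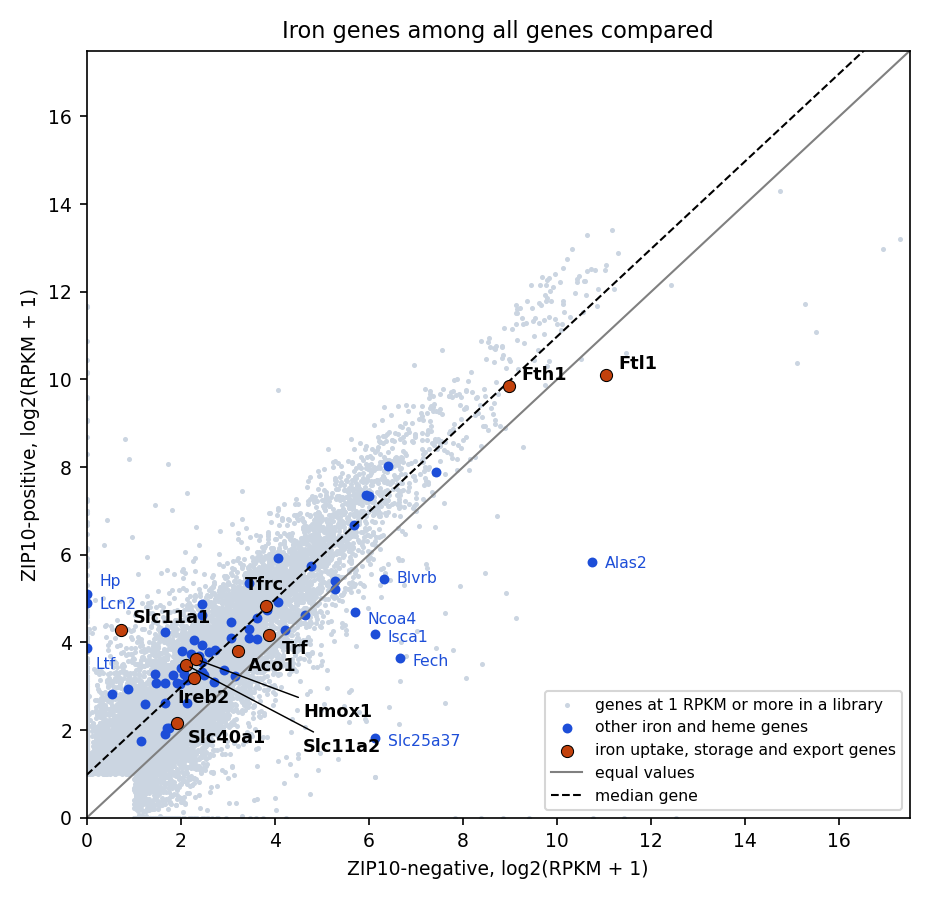
Each gene with at least 1 RPKM in a library by its log2(RPKM + 1) in ZIP10- (x) and ZIP10+ cells (y), with the iron genes in orange and the other iron and heme genes in blue. The solid line marks equal values and the dashed line the median gene; Ftl1, Ncoa4, Blvrb, Isca1, Fech, Alas2 and Slc25a37 are among the genes below the solid line, and Slc11a1, Hp, Lcn2 and Ltf near the left edge.

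The wider pathway was described with 75 other iron and heme genes in 8 lists, of which 74 were in the table and 63 reached 1 RPKM in a library. As deposited 33 of these 63 were at least 2-fold higher in ZIP10+ cells and 5 lower, beside the 44.1% and 3.55% of all genes given above. Against the median gene 9 were higher and 7 lower, beside 14.7% and 11.4%. Without genes listed at 0 in a library 30 were higher as deposited and 6 against the median gene, while those lower were again 5 and 7. The median log2 ratio of the 63 was 1.05 as deposited and 0.19 against the median gene, beside 0.87 and 0.094 over all genes compared. Of the 63, 5 passed the filter through the ZIP10+ library alone, which fixes their direction as deposited. Alas2 and Slc25a37 also stand in the erythroid, Ltf in the neutrophil and Cd163 in the macrophage marker list.

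Among 14 further uptake and reduction genes 12 reached 1 RPKM. As deposited 8 were at least 2-fold higher, Lcn2 and Ltf on a listed 0, and none lower, beside 44.1% and 3.55% of all genes compared. Against the median gene 4 were higher and none lower, beside 14.7% and 11.4%. Of these 4, Steap1 and Slc39a8 were above 0 in both libraries and Lcn2 and Ltf rest on a listed 0. Lcn2, which binds bacterial iron carriers, and Ltf, the iron-binding lactoferrin of neutrophil granules, stood at 28.8 and 13.7 RPKM and were both listed at 0 in ZIP10- cells. Steap1, of the STEAP metalloreductase family, stood at 17.7 against 2.18 RPKM and Slc39a8, a zinc and iron importer, at 8.75 against 1.75 RPKM. Lrp1, an endocytic receptor for heme bound to hemopexin, was nearly equal as deposited, at 18.4 and 17.6 RPKM, with a log2 ratio of -0.87 against the median gene. Tfr2, the second transferrin receptor, which the table lists under its older symbol Trfr2, was at 0 in both libraries.

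Genes of ferritin turnover went both ways. Ncoa4, the receptor that delivers ferritin to the lysosome, stood at 25.04 RPKM in ZIP10+ and 51.5 RPKM in ZIP10- cells, 2.06-fold lower in the former. Its log2 ratio against the median gene was -1.96, beside -1.91 for Ftl1. The iron chaperones Pcbp1 and Pcbp2 stood at 163 and 162 RPKM against 60.6 and 63.3 RPKM, log2 ratios of 0.45 and 0.37 against the median gene. Of 10 genes of export and its control 6 were under 1 RPKM in both libraries, among them the hepcidin genes Hamp and Hamp2, listed at 0 in both. Heph, a ferroxidase that works with ferroportin, stood at 9.41 against 6.53 RPKM. Bmp6, the iron-responsive inducer of hepcidin in liver, stood at 23.6 against 24.03 RPKM, a log2 ratio of -0.96 against the median gene. Hfe, a partner of the transferrin receptor, stood at 12.3 against 3.64 RPKM. It was the 1 gene of the 4 at least 2-fold higher as deposited, beside 44.1% of all genes compared. None of the 4 was 2-fold apart against the median gene, beside 14.7% of genes higher and 11.4% lower.

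Among 8 genes of iron sensing none was at least 2-fold apart against the median gene, beside 14.7% of all genes compared higher and 11.4% lower. Fbxl5, the iron-binding ubiquitin ligase subunit that marks Ireb2 protein for decay, came nearest at 13.004 against 3.06 RPKM, a log2 ratio of 0.96 against the median gene. Its partner Skp1a stood at 236 against 171 RPKM, and Keap1, the repressor of NRF2, at 22.4 against 11.4 RPKM. Of 8 antioxidant targets of NRF2, the factor that also induces Hmox1, 7 were at least 2-fold higher as deposited, against 44.1% of all genes compared. None was 2-fold apart against the median gene, beside 14.7% of all genes higher and 11.4% lower. The median of their log2 ratios on that scale was 0.64, beside 0.094 over all genes compared. Prdx1, a peroxiredoxin, stood at 258 against 83.8 RPKM and Slc7a11, the cystine importer, at 7.48 against 1.76 RPKM. Gclm, a subunit of the enzyme that starts glutathione synthesis, lay at the median gene with 18.7 against 9.89 RPKM.

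Heme synthesis genes went both ways. Alas2, the erythroid first enzyme, stood at 56.2 RPKM in ZIP10+ and 1718 RPKM in ZIP10- cells, 30.5-fold lower in the former. Fech, which inserts iron into the ring at the last step, stood at 11.6 against 100.2 RPKM, 8.65-fold lower. The other 7 genes went the opposite way as deposited, with Alad at 59.5 against 15.7 RPKM and Urod at 52.3 against 26.3 RPKM. Of these, Uros alone was 2-fold higher against the median gene, at 6.03 against 0.458 RPKM. It passed the filter through the ZIP10+ library alone, which fixes its direction as deposited. Of the 9 genes 5 were at least 2-fold higher as deposited and 2 lower, beside 44.1% and 3.55% of all genes compared. Against the median gene 1 was higher and 2 lower, beside 14.7% and 11.4%.

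Genes that handle heme and hemoglobin also divided. Blvrb, a biliverdin reductase abundant in red cells, stood at 42.9 RPKM against 78.8 RPKM, 1.84-fold lower in ZIP10+ cells, while Blvra, the main reductase of biliverdin, stood at 39.8 against 9.91 RPKM. Hp, haptoglobin, which binds free hemoglobin and is also stored in neutrophil granules, reached 33.4 RPKM, beside a listed 0 in ZIP10- cells. Slc48a1, a heme transporter of the lysosome, was at 41 and 37.7 RPKM, and Slc46a1, a folate and heme transporter, at 6.7 and 0.832 RPKM. The heme exporter Flvcr1, listed under its older symbol Mfsd7b, stood at 2.77 against 2.18 RPKM. In this list 3 of 7 genes that reached 1 RPKM were at least 2-fold higher as deposited, Hp on its listed 0, and none lower. Of all genes compared 44.1% were higher and 3.55% lower. On the scale of the median gene 2 were higher, Slc46a1 and Hp, the latter resting on its listed 0, and 1, Blvrb, lower. The shares of all genes on that scale were 14.7% and 11.4%. Slc46a1 and Hp passed the filter through the ZIP10+ library alone, which fixes their direction as deposited.

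**Figure D5:**
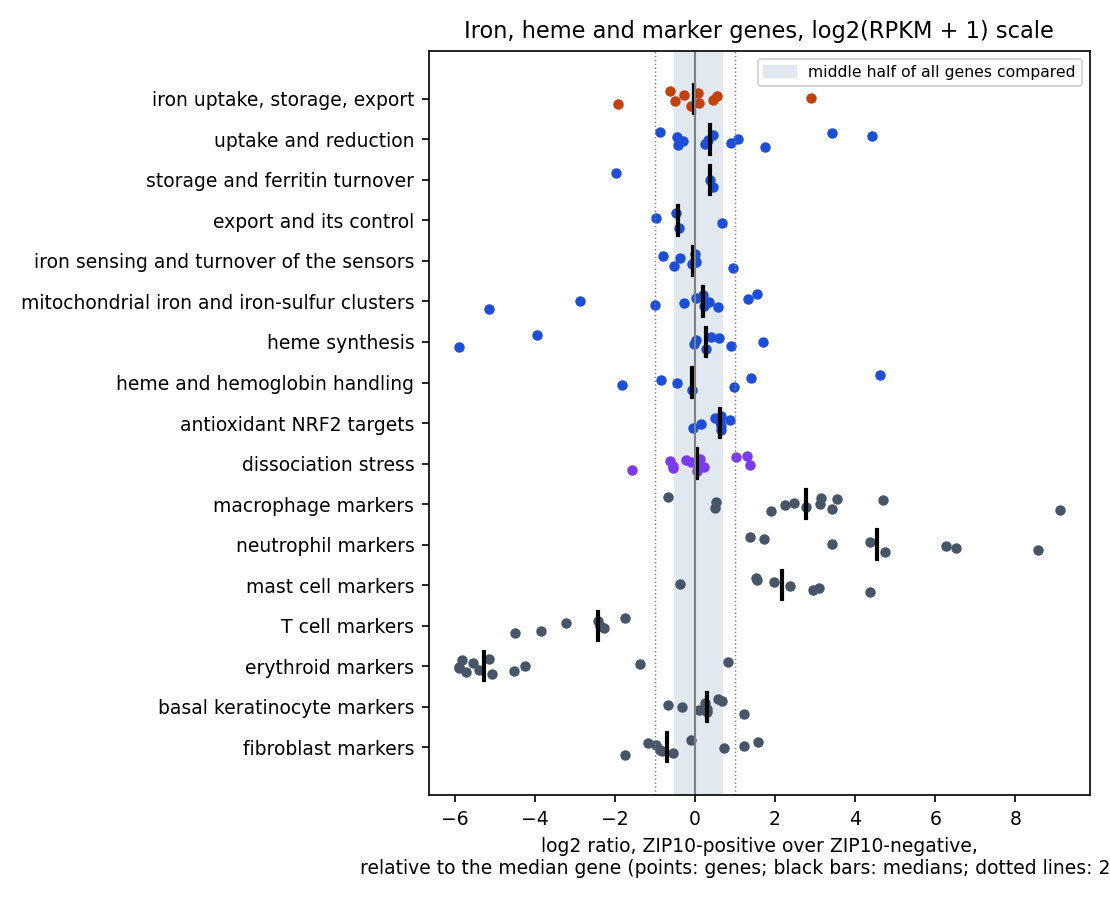
Log2 ratio against the median gene for each gene that reached 1 RPKM in a library, by list, with medians as black bars, 2-fold limits as dotted lines and the interquartile range of all genes compared as a grey band. The median of the iron genes is near 0 at -0.014; macrophage, neutrophil and mast cell markers lie to the right and erythroid and T cell markers to the left.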

How the data were processed

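The authors deposited 1 table of RPKM values for both libraries, by gene symbol; its name gives the unit. Cutadapt, TopHat, Cufflinks and mm9 stand in the submitters' processing notes, whereas versions, order, annotation and strand setting were not stated. Single reads of 50 bases came from 10 ng of total RNA, per the labels' protocols.

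Values were compared as log2((positive + 1)/(negative + 1)), which understates changes of low genes, over 12249 genes with 1 RPKM or more in a library. Against the median gene, the median log2 ratio of 9620 genes at 1 RPKM or more in both libraries, 0.98, was divided between the libraries. The design allows no test.

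Had the counting used whole reads, the 2 values of a gene have a quotient of whole numbers multiplied by 0.975; depth came from such ratios and GENCODE lengths, less 199 bases, of 915 genes with 1 transcript, 20.1% of them inside the densest window of 1.4%. For 5 members the smallest whole numbers lay within 5% of the estimate from the shortest principal transcript and were used as reads; for the other 5 the rounded estimate was used. The intervals are exact, at 95%, and cover counting error only, without molecular identifiers. They do not cover the error of the depth and length estimates.

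All 10 members and 20817 of the 23233 symbols matched the reference table, and 3 listed genes were found under older symbols. The members and lists were chosen with earlier results of these data known. Named are all members, up to 4 of the most abundant and 2 of the most different genes in each direction of a list, and the 2 nearest genes of a member; markers listed at 0, Cd14, Cx3cr1, Slc39a8, Tfr2, Flvcr1, Hmox2, Gclm, Keap1, Hamp and Hamp2 were named after their values were seen. Some genes that the rule allows are left out. Steps were tested on simulated data. Alternatives were pseudocounts of 0.5 and 5, no filter or one of 5 RPKM, genes above 0 only, and 2 other scalings. Used were Python 3.11.15, pandas 2.3.3, numpy 2.4.6, scipy 1.17.1 and matplotlib 3.10.9.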

Additional observations from a re-analysis of the deposited data

How the results depend on the processing

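No paired analysis was possible because each group is 1 library, and leaving out a library leaves no comparison. Scaling had the largest effect. Scaled to genes outside the 50 most abundant, 1 member was at least 2-fold higher and 1 lower, with a median log2 ratio of -0.34. Scaled without globin genes and Rn45s these were 1, 2 and -0.41. Of all genes compared, 9.74% were higher and 17.54% lower with the former scaling, and 8.99% and 19.2% with the latter. The share of higher genes among all those 2-fold apart was 92.6% as deposited, 56.3% against the median gene, 35.7% with the former and 31.9% with the latter scaling. Tfrc, 2-fold higher as deposited, turned to -0.24 and -0.30. Of the 63 other iron and heme genes 7 were then higher and 11 lower under both scalings. Over all genes compared the shares were 9.74% and 17.54% with the former and 8.99% and 19.2% with the latter. The median of the 63 turned to -0.078 and -0.14. With a pseudocount of 5, as deposited, 1 member was higher, the median was 0.71, and 19 other iron and heme genes were higher, with a median of 0.74; against the median gene 5 of them were higher. With no filter, their median was 0.91 as deposited and 0.017 against the median gene. The remaining alternatives kept counts within 1.5 times and medians within 0.1. Of 138 values of single members under the alternatives, 113 moved by less than the error of counting, 23 by more, and 2, those of Tfrc, changed sign after a 2-fold call. This tally is no measure of stability. As deposited, the changes of filter and the limit to genes above 0 cannot move a member's value. That limit leaves it unmoved against the median gene too, and the 2 other scalings enter with the same values on both scales. The filter of 5 RPKM removed Slc40a1. Slc11a1 ranged from 1.63 to 4.06 and Ftl1 from -2.32 to -0.93. Depth limits Slc11a1 in ZIP10- cells, at about 4 reads, and Slc40a1 and Hmox1.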

Other observations

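Of 12 genes that carry iron into mitochondria and build iron-sulfur clusters, 6 were at least 2-fold higher in ZIP10+ cells as deposited and 2 lower, beside 44.1% and 3.55% of all genes compared. Against the median gene 2 were higher and 3 lower, beside 14.7% and 11.4%. Slc25a37, the mitochondrial iron importer of red cell precursors, stood at 2.54 RPKM against 69.4 RPKM, 27.3-fold lower in ZIP10+ cells, while Slc25a28, its relative in other cells, stood at 9.72 against 3.04 RPKM. The cluster assembly genes Isca1 and Isca2 went opposite ways, at 17.4 and 23.8 RPKM in ZIP10+ cells against 69.5 and 4.44 RPKM. Fdx1, the ferredoxin that supplies electrons, stood at 28.4 against 4.48 RPKM. Iscu, the scaffold on which clusters form, was nearly equal as deposited, at 36.3 and 37.7 RPKM. Against the median gene its log2 ratio was -1.01, so it is among the 3 lower on that scale. Glrx5, a glutaredoxin of cluster transfer, lay at the median gene with 101 against 50.7 RPKM.

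Of 13 genes that tissue dissociation is known to induce, 6 were at least 2-fold higher as deposited and none lower, beside the same 44.1% and 3.55%. Against the median gene 3 were higher and 1 lower, beside 14.7% and 11.4%, around a median of 0.041 that compares with 0.094 over all genes. The metallothionein genes Mt1 and Mt2, which bind zinc and copper, stood at 597 and 789.9 RPKM against 149 and 163 RPKM. Atf3, a stress transcription factor, stood at 6.49 against 0.831 RPKM and Fosb, an early response factor, at 5.43 against 9.58 RPKM. Atf3 passed the filter through the ZIP10+ library alone, which fixes its direction as deposited.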
